A study of Drosophila melanogaster with 23 samples.

Results

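The 357 regions described here are the places on the euchromatic part of the X chromosome of Drosophila melanogaster where chromatin immunoprecipitation followed by sequencing (ChIP-seq) placed the protein Mzfp1. They were obtained by merging, wherever at least 1 bp was shared, the 4 lists of regions precipitated from adult flies with antibodies against Mzfp1 and the 2 lists from embryos, and by keeping merged regions on X that ended before the border of its pericentromeric heterochromatin at 22.63 Mb (build dm6). Of 2486 merged regions in all, 357 lay on the euchromatic X and 1950 on the euchromatic parts of the autosomal arms 2L, 2R, 3L and 3R, which serve as the comparison throughout. A further 117 regions lay in the heterochromatin of those arms, 6 on X reached or passed the border, 54 lay on chromosome 4 and 2 on the Y chromosome. The 4 lists made with antibodies against the HA epitope took no part in the choice of regions.

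Mzfp1 is the product of the gene CG1603 and carries MADF domains and a cluster of C2H2 zinc fingers, a class of domain that reads DNA sequence. Such proteins can bring partners such as the architectural protein CP190 to promoters, above all those of housekeeping genes, which are used in most cells. The X chromosome is present as a pair in females and as a single copy in males, in which the dosage compensation complex raises its transcription, so that the proteins found at X promoters act on a chromosome of unequal dose.

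Each of the 10 lists came from 1 group of whole animals. Untagged y1w1118 animals were taken as embryos, for anti-Mzfp1 raised in rat or in rabbit, and as adults of 2 to 3 days, also for anti-Mzfp1. The other adults, also 2 to 3 days old, carried an HA-tagged transgene driven by the Ubi-p63E promoter (U:Mzfp1) at 86F8 over the balancer TM6,Tb. Their labelled strain, with a vas-int.Dm integrase source on X, was by the study's methods the line that was injected, whose offspring were then crossed into y1w1118. The transgene encoded either the full protein (wt-HA) or one that lacked zinc fingers 3 to 6 of the C-terminal cluster (ΔZF-HA), the stretch that contacts CP190 (Δ42-HA) or the second of the MADF domains (ΔM2-HA). By the genotype in the study's methods these adults were CG1603attP/CyO and so kept 1 untouched copy of CG1603, which means that anti-Mzfp1 could precipitate the endogenous protein together with the tagged one, whereas anti-HA saw the tagged one only. Anti-HA was used on all 4 transgenic strains and anti-Mzfp1 on the same adults except ΔZF-HA. Adult lists each combine 2 libraries and embryo lists rest on 1 library, so no list has a spread between replicates, differences between genotypes cannot be told apart from differences between single lists, and the 95% intervals given here cover counting error only. The sex of the adults is not given, and reads per library are unknown from these files. The lists held 110 to 6215 regions on assembled chromosomes, of which 51 to 1125 in the anti-HA lists and 12 to 285 in the others lay on the euchromatic X.

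A pair of weight matrices was searched in the regions, and sequences that matched them are shown first. The first matrix matched 146 of the 357 X regions. The second matched 14 of them (3.92%), near the 2.85% of windows flanking X regions. Of these matches, 8 lay in the 25 X regions of highest y1w1118 enrichment. A weight matrix of 15 bp was trained on the 500 strongest autosomal regions of the y1w1118 list, without any region of X, and then searched on both strands within 150 bp of each summit at a score that 1 in 40 flanking windows of the autosomes reached. A second matrix was trained in the same way on the 50 strongest of these training regions alone. That second choice, and the tiers used with it, were made after the values of the X regions had been seen. The following regions of X held matches of the first matrix. Each line gives the gene whose start was nearest to the summit, the position in dm6 (BDGP6), the strand and the sequence of that strand from 5′ to 3′, with the matched bases in capitals.
Dd, chrX:21324005-21324059, minus: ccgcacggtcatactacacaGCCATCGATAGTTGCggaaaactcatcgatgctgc
Ntf-2, chrX:21035402-21035456, plus: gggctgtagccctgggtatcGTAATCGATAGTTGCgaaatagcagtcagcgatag
RpS28b, chrX:9554545-9554599, minus: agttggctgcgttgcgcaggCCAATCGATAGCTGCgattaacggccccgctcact
Rab35, chrX:20159855-20159909, plus: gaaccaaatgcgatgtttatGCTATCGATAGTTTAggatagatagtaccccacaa
su(w[a]), chrX:1033201-1033255, minus: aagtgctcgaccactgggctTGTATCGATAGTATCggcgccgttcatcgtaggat
RpS15Aa, chrX:13337684-13337738, plus: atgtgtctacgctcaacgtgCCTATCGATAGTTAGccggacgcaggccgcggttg
Phf7, chrX:20165910-20165964, plus: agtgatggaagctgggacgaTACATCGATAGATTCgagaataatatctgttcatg
The second matrix matched in the regions below, which belong to the most enriched ones on X. Capitals again mark the match.
vap, chrX:16005813-16005867, minus: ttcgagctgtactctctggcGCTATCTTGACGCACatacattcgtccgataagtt
sun, chrX:15849298-15849352, minus: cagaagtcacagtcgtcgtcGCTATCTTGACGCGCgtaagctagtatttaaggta
CG8939, chrX:15996961-15997015, plus: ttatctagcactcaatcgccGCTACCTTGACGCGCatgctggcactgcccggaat
Phf7, chrX:20165969-20166023, minus: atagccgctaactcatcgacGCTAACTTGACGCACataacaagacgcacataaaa
mRpS30, chrX:15786014-15786068, plus: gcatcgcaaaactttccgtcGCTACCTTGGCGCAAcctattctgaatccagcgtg
CCT2, chrX:9090128-9090182, minus: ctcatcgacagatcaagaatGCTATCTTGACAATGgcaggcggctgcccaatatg
The region at Phf7 is the only one shown that held a match of each matrix, on opposite strands and next to each other.

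The regions were spread along the whole euchromatic arm and were less dense than on the autosomes. The euchromatic X made up 19.6% of the euchromatin compared and held 15.5% of its regions (95% interval 14.1 to 17.01), or 15.8 regions per Mb against 21.0 per Mb on the autosomal arms. Counted by genes the difference was smaller: 398 of 2173 protein-coding genes on the euchromatic X (18.3%, 16.7 to 20.0) had a region at a promoter, against 2195 of 11536 (19.0%) on the autosomal arms. The merged regions had a median width of 454 bp, from 155 to 2922 bp, and together covered 202 kb. Neighbouring regions were separated by a median of 26.1 kb, and 96 of 356 gaps were shorter than 10 kb. The densest stretches of 1 Mb were 15 to 16 Mb with 36 regions for 140 coding-gene starts and 16 to 17 Mb with 32 regions for 125 starts, whereas the stretch from 3 to 4 Mb held 5 regions for 55 starts. The widest gap, 814 kb, separated the regions at DIP1 (chrX:21630095-21630689) and CG14621 (chrX:22443614-22445255). The last region inside the border lay between the divergent genes Usp2, a ubiquitin protease, and wap (chrX:22455603-22456021), and the first regions past it at asRNA:CR45009 (chrX:23007558-23007828), Rab21 (chrX:23013221-23013645) and zyd (chrX:23023339-23023601). Fold enrichment over the local background in y1w1118 was 4.89 at Usp2 and 25.8 at CG14621, while DIP1 was not in that list. Of those past the border it was 3.14 at CR45009 and 2.76 at Rab21.

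Among the 6 lists that define the regions, presence on X followed presence on the autosomes in some lists and departed from it in others. The y1w1118 adult list contained 239 of the 357 X regions (66.9%), as against 66.7% of autosomal regions and 66.5% of all merged regions. The wt-HA list made with anti-Mzfp1 contained 231 (64.7%, autosomal 65.9%, all regions 67.3%), and the Δ42-HA list 285 (79.8% on both X and autosomes, all regions 79.6%). The ΔM2-HA list contained 198 X regions (55.5%), against 65.6% of autosomal regions and 63.6% of all regions, a difference of -10.1 percentage points with a counting interval of -15.7 to -4.63. The embryo list made with the rat antibody contained 149 X regions (41.7%) against 27.0% of autosomal and 30.3% of all regions, a difference of 14.7 points (9.32 to 20.2). The embryo list made with the rabbit antibody, the shortest of all, contained 12 X regions (3.36%) beside 3.28% of autosomal and 4.3% of all regions. Since these lists chose the regions, their shares are a description.

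**Figure D1:**
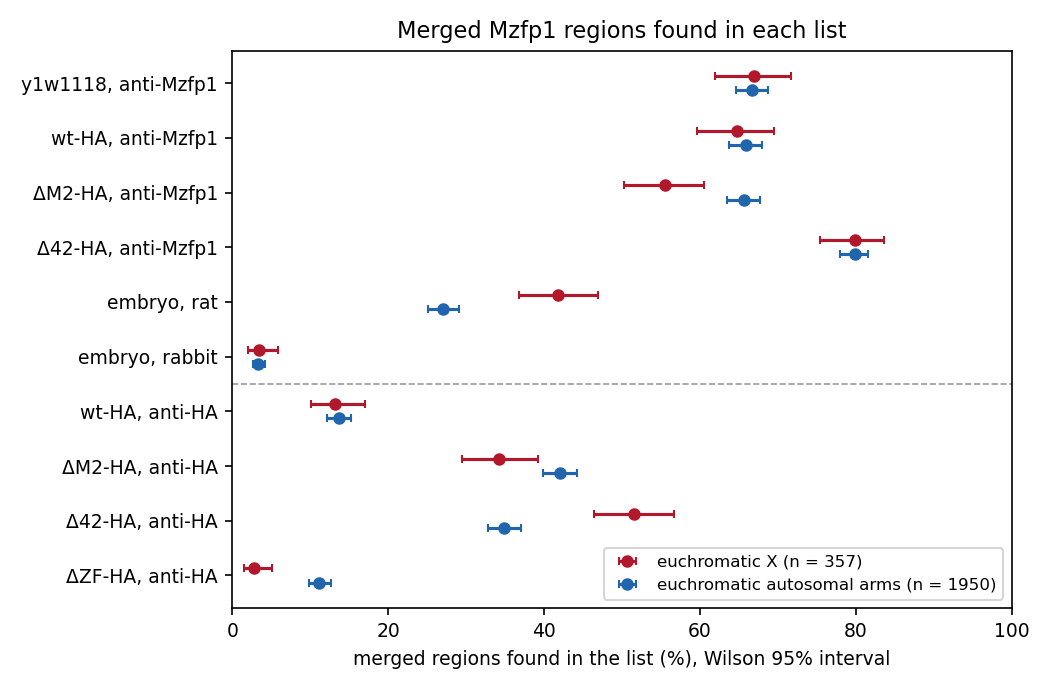
Share of merged regions (%) found in each of the 10 lists, for the 357 euchromatic X regions and the 1950 euchromatic autosomal regions; bars on the points are Wilson 95% intervals and cover counting error only. The X share is lower in both ΔM2-HA lists and in ΔZF-HA, and higher in the rat embryo list and in Δ42-HA precipitated with anti-HA.

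Most regions came from adults, and a sizeable group appeared at both stages. Adult lists alone held 207 regions (58.0%, autosomal 72.2%, all regions 68.9%). Adult and embryo lists together held 137 (38.4%, autosomal 24.9%, all regions 27.9%), and embryo lists alone 13 (3.64%, autosomal 2.92%, all regions 3.22%). All 4 adult anti-Mzfp1 lists shared 150 regions (42.02%, autosomal 46.3%), and 91 regions rested on a single one of the 6 lists (25.5%, autosomal 25.4%). Of regions missing from exactly 1 adult list, 31 were missing from ΔM2-HA (8.68% of X regions, autosomal 6.05%) and 11 from wt-HA (3.08%, autosomal 4.72%). A further 8 were missing from y1w1118 (2.24%, autosomal 3.59%) and 1 from Δ42-HA (0.280%, autosomal 0.205%). Among the adult anti-Mzfp1 lists, 15 regions were in y1w1118 alone, led by CG32512 (3.41-fold) and the promoter of Prosalpha4 (2.97-fold), a proteasome subunit, 21 in wt-HA alone, led by a region near out (6.12-fold) and the promoter of tth (4.81-fold), 16 in ΔM2-HA alone, led by Act5C, a cytoplasmic actin (2.93-fold), and Hers (2.85-fold), and 34 in Δ42-HA alone, led by ND-B14.5A and east (2.60-fold each). In that order these groups made up 4.20%, 5.88%, 4.48% and 9.52% of X regions, against 2.87%, 4.87%, 6.92% and 8.51% of autosomal regions. The region near out (chrX:19326795-19327095) was also found with anti-HA, at 13.6-fold and rank 144 in Δ42-HA. CG32512 was also in the rat embryo list at 4.12-fold and in the ΔM2-HA anti-HA list at 9.62-fold, where it ranked 151. Of the 13 regions that embryo lists alone defined, the 5 strongest were at Agpat1 (chrX:12765183-12765408; 3.85-fold), an acyltransferase of phospholipid synthesis, at CG44774 (3.63-fold), in an intron of sn (3.14-fold), which encodes the actin-bundling protein fascin, at the promoter of Trf2 (3.05-fold), a TBP-related transcription factor, and at lncRNA:CR43838 (3.00-fold). All 5 were 208 to 245 bp wide in the rat embryo list and ranked 340 to 543 of its 784 regions, so none was near its top. The region of sn was also in the adult Δ42-HA list made with anti-HA, at 3.11-fold and rank 2502.

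The most enriched X region held the same rank in every adult anti-Mzfp1 list. The divergent promoter between CG1677 and CG2059 (chrX:7285840-7287144) ranked 3 in each of the 4 adult anti-Mzfp1 lists and in the rat embryo list, with 211-fold enrichment in y1w1118, 205-fold in Δ42-HA, 167-fold in wt-HA, 142-fold in ΔM2-HA and 15.6-fold in embryos. With anti-HA it had 143-fold enrichment in wt-HA (rank 4), 48.8-fold in ΔM2-HA (rank 29), 332-fold in Δ42-HA (rank 1) and 13.4-fold in ΔZF-HA (rank 4). Fold values are comparable within a list and not between lists, and ranks depend on list length, which was 553 regions in wt-HA and 6187 to 6215 in the others precipitated with anti-HA.

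The divergent promoter of Phf7 and CG9577 (chrX:20165359-20167752) came next with 113-fold in y1w1118, 112-fold in Δ42-HA, 87.1-fold in wt-HA and 69.0-fold in ΔM2-HA. Phf7 encodes a PHD-finger protein known for male identity of germ cells. With anti-HA the region had 59.7-fold enrichment in wt-HA, 36.5-fold in ΔM2-HA, 87.1-fold in Δ42-HA and 5.62-fold in ΔZF-HA, at ranks 26, 51, 14 and 38. In embryos it had 14.9-fold with the rat and 6.55-fold with the rabbit antibody. The widest region of all, 2869 bp in y1w1118, lay at CG17841 (chrX:10365953-10368874) and overlapped the promoters of CG32679 and l(1)G0289 as well. It had 90.7-fold enrichment in y1w1118, 89.2-fold in Δ42-HA, 74.3-fold in wt-HA, 62.9-fold in ΔM2-HA and 10.2-fold in rat embryos, and with anti-HA 37.7-fold in wt-HA, 16.4-fold in ΔM2-HA, 35.1-fold in Δ42-HA and 4.42-fold in ΔZF-HA. The promoter of vap (chrX:16005229-16006703), which encodes a Ras GTPase-activating protein, had 54.7-fold in y1w1118 and in Δ42-HA, 57.5-fold in wt-HA and 35.9-fold in ΔM2-HA, and with anti-HA 28.1-fold in wt-HA, 9.89-fold in ΔM2-HA, 32.5-fold in Δ42-HA and 2.45-fold in ΔZF-HA. CG8939 (chrX:15996547-15998264) followed with 49.9-fold in y1w1118 and 68.3-fold in Δ42-HA with anti-HA, where it ranked 30 against 70 in wt-HA and 197 in ΔM2-HA. These 5 regions, CG1677, Phf7, CG17841, vap and CG8939, were the X regions present in all 10 lists. Presence in all 10 lists thus held for 1.40% of X regions, beside 24 autosomal regions (1.23%) and 2.21% of all merged regions.

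The other 5 of the 10 strongest regions also lay at promoters. mRpS30, a protein of the mitochondrial ribosome, shares its start region with Paf-AHalpha (chrX:15785214-15787318) and had 48.7-fold enrichment in y1w1118, 11.1-fold in rat embryos and 35.6-fold with anti-HA in wt-HA, and it was not in the ΔZF-HA list. Ggt-1, a gamma-glutamyl transpeptidase (chrX:18512137-18513761), had 45.0-fold in y1w1118 and 69.9-fold in wt-HA, and ranked 19 in the Δ42-HA anti-HA list at 81.7-fold. nonA, an RNA-binding protein (chrX:16360993-16362000), had 41.3-fold in y1w1118 and was the top region of the rabbit embryo list at 28.1-fold. CG14411 (chrX:14831725-14833072) had 31.6-fold in y1w1118 and 10.1-fold in ΔM2-HA with anti-Mzfp1, at ranks 84 and 114. sun, the epsilon subunit of mitochondrial ATP synthase (chrX:15848656-15849681), had 29.4-fold in y1w1118 and 25.0-fold with anti-HA in Δ42-HA, and it was in neither the ΔM2-HA nor the ΔZF-HA anti-HA list.

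**Figure D2:**
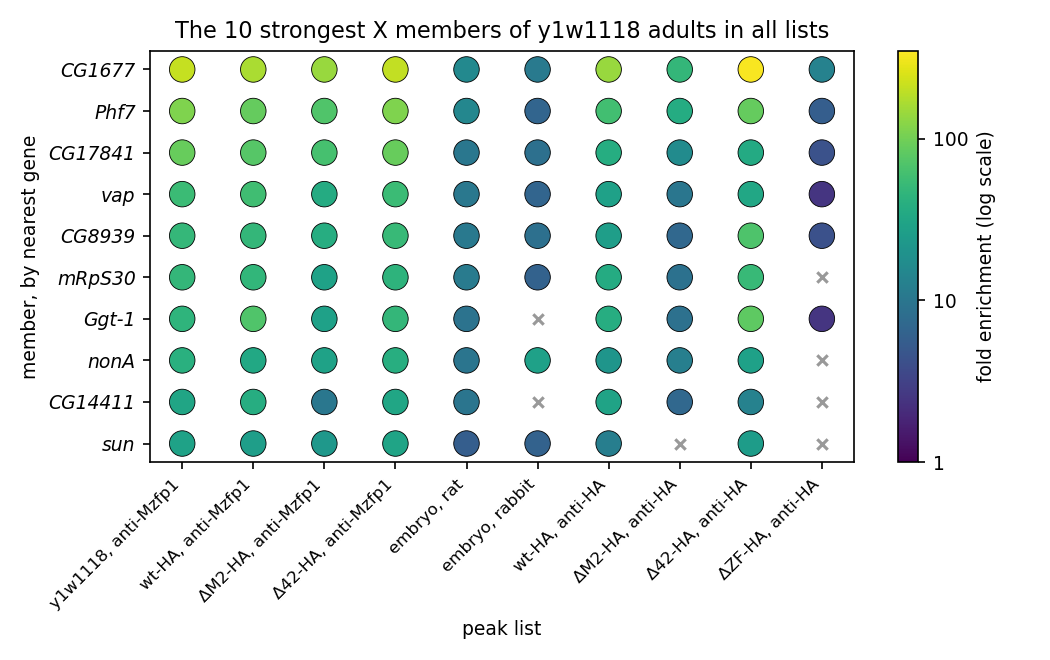
Fold enrichment over local background, as colour on a log scale, in each of the 10 lists (columns) for the 10 X regions with the highest y1w1118 values (rows, named by the gene with the nearest start); a cross means that the region was not in that list. CG1677 is the highest of the 10 in y1w1118 at 211-fold, and values in the ΔZF-HA list run from 2.45-fold at vap to 13.4-fold at CG1677, with 4 regions absent.

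Outside these, enrichment was modest and like that on the autosomes. The median fold enrichment of X regions in y1w1118 was 3.43, with quartiles at 2.76 and 5.31, beside a median of 3.56 for autosomal regions. Placed by rank within the whole list, with the strongest region at the low end, the median X region stood at 54.1% in y1w1118, 52.3% in Δ42-HA, 50.0% in wt-HA and 46.6% in ΔM2-HA with anti-Mzfp1, while autosomal medians ran from 51.2% to 53.4%. In rat embryos the median X region stood at 42.9% and the autosomal one at 55.4%. In the long anti-HA lists X regions ranked towards the top, at a median of 16.3% in ΔM2-HA against 33.4% for autosomal regions, and of 19.8% in Δ42-HA against 32.7%.

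X regions had lower median widths than autosomal regions in 7 of the 8 adult lists. Median widths on X and on the autosomes were 364 and 512 bp in y1w1118, 404 and 540 bp in Δ42-HA, 414 and 565 bp in ΔM2-HA, and 431 and 544 bp in wt-HA with anti-Mzfp1. In the rat embryo list they were 296 and 288 bp, and in the rabbit list, with 12 X regions, 251 and 266 bp. In these widths, which are those of the first input of the replicate procedure, the gap persisted where regions of like enrichment were set side by side. Over the y1w1118 quartiles of fold enrichment from low to high, X medians were 280.5, 305, 335 and 594.5 bp and autosomal medians 362, 471.5, 517 and 776 bp. Widths also depended on which input of the replicate procedure they were taken from, since the second y1w1118 input gave 515 bp on X and 608 bp on the autosomes. With that input the lowest quartile went the other way, at 490.5 bp on X and 475 bp on the autosomes. In the other quartiles X stayed narrower. With anti-HA, X and autosomal medians were 515 and 607 bp in wt-HA, 643.5 and 793 bp in ΔM2-HA, 311 and 543 bp in ΔZF-HA, and in the other order, 851.5 and 765 bp, in Δ42-HA. The 45 X regions shared by the wt-HA and Δ42-HA anti-HA lists were 1.86 times as wide in the latter (median ratio, 40 of 45 wider), and the 210 autosomal ones 1.17 times.

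The widest regions in y1w1118 were those of CG17841 (2869 bp) and Phf7 (2377 bp), followed by CCT2, a chaperonin subunit (1700 bp), the divergent promoter of Lint-1 and Ran (1543 bp) and CG8939 (1540 bp). CCT2 had 17.4-fold enrichment there and 16.5-fold with anti-HA in wt-HA. The region of Lint-1 and Ran, of which the latter encodes the GTPase of nuclear transport, was in every adult anti-Mzfp1 list but ΔM2-HA, yet it ranked 116 with anti-HA in ΔM2-HA at 14.4-fold.

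**Figure D3:**
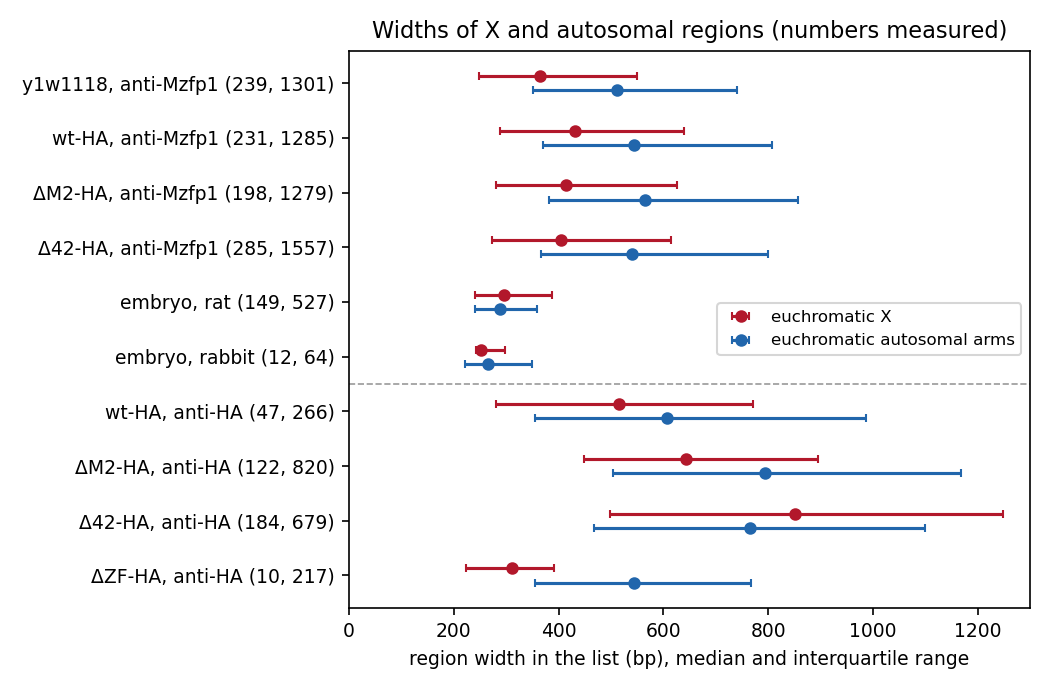
Width (bp) of euchromatic X and autosomal regions in each list; points are medians and bars span the quartiles, with the numbers of X and autosomal regions measured in brackets. The X median is lower than the autosomal one in every adult list except Δ42-HA precipitated with anti-HA, and close to it in the rat embryo list.

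The background against which the regions were called differed between X and autosomes. Solved from the deposited fold enrichment and p-value, the background value used to call X regions of y1w1118 had a median of 51.5 fragments per base. It lay between 51.3 and 52.1 in 80% of regions, close to the list's minimum of 51.2. At autosomal regions the median was 69.6 and the minimum also 51.2. X values thus lay near a shared lower limit and need not equal the control coverage at these regions. Fold enrichment on X, also in the quartiles, was taken over these values. The ratio of X to autosomal medians was 0.740 in y1w1118, 0.707 to 0.732 in the other adult anti-Mzfp1 lists, 0.793 to 0.906 in the anti-HA lists, and 0.827 and 0.899 in the rat and rabbit embryo lists. Its part in the widths, the counts and the lower density on X was not tested, and the sex of the animals and a lower background on X cannot be told apart in these data.

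Promoters held most of the regions, at the same share as elsewhere. Of the 357, 288 (80.7%, 76.3 to 84.4) overlapped a window that reached 200 bp to each side of an annotated transcription start, beside 81.8% of autosomal regions and 80.7% of all merged regions. The difference from the autosomes was -1.12 points (-5.83 to 3.04). Divergent gene pairs accounted for 111 regions (31.1%, autosomal 31.3%). The summit lay within the window in 268 regions, in an intron in 27, between genes in 28, in a coding exon in 22, in a 5′ untranslated region in 5, in a 3′ untranslated region in 3 and in a non-coding exon in 4. Its median distance to the nearest start was 60 bp, with quartiles at 30 and 196 bp, against 53 bp on the autosomes. The promoter share rose with the number of lists, on X as on the autosomes. In a single defining list it was 57 of 91 regions (62.6%, autosomal 67.9%, all regions 64.1%). In more than 1 list it was 231 of 266 (86.8%, autosomal 86.5%, all regions 86.3%). In all 4 adult anti-Mzfp1 lists it was 138 of 150 (92.0%, autosomal 91.0%, all regions 91.5%). All 12 regions of the rabbit embryo list were at promoters, beside 79.7% of its autosomal regions and 82.2% of all its regions. The genes at these promoters were 398 protein-coding genes, 18 non-coding RNA genes, and 1 each of tRNA, snoRNA and pseudogene.

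The strongest region away from a promoter was among the strongest on the chromosome. It lay between genes, 1928 bp from the start of RpL37-1 (chrX:15137101-15137725), with 24.0-fold enrichment in y1w1118, 22.9-fold in Δ42-HA, 12.8-fold in ΔM2-HA and 10.3-fold in wt-HA. Neither an embryo list nor an anti-HA list contained it. Next came a region 980 bp from prage (chrX:1771994-1773018), with 16.7-fold in y1w1118, 9.77-fold in rat embryos and 15.5-fold with anti-HA in wt-HA. An intronic region of trol (chrX:2524463-2524856), which encodes perlecan, had 8.45-fold in y1w1118 and was in the 4 adult anti-Mzfp1 lists and no other. A region 1200 bp from snoRNA:Psi28S-3436b had 8.40-fold, and one in an intron of sdt, a scaffold of the apical polarity complex, 5.81-fold.

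Gene lists differed in how many of their members had a region at the promoter, and ribosomal protein genes led them. Of 14 cytoplasmic ribosomal protein genes on the euchromatic X, 13 (92.9%, 68.5 to 98.7) had a region at the promoter, where 18.3% of all coding genes did. RpL35 was the exception. RpS5a had the highest y1w1118 value of the list at 8.34-fold, followed by RpS15Aa at 5.33-fold, RpS28b at 5.06-fold and RpS14a at 4.54-fold, and each of these was in 5 defining lists. RpL22 had 3.49-fold and was in 3 anti-HA lists, whereas RpS5a was in none. Of 11 mitochondrial ribosomal protein genes 6 had a region, led by mRpS30 at 48.7-fold and mRpS14 at 9.92-fold, with mRpL33 at 5.08-fold and mRpL3 at 3.85-fold. Genes of oxidative phosphorylation, listed by the prefix of their symbols, had a region in 6 of 13 cases, and sun, whose symbol lacks such a prefix, is not counted among them. Of the 6, COX6B, a subunit of cytochrome c oxidase, had 4.63-fold and UQCR-14 3.78-fold. ND-B14.5A, ND-ASHI and ND-20 were in a single defining list each.

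Lists of regulators were short, and their shares are read against the same 18.3% of all coding genes. Of 4 architectural or promoter factors, 3 had a region: Top1, topoisomerase I (6.08-fold), Nup153, a nuclear pore protein (4.68-fold), and ewg, a transcription factor (2.76-fold), but not dwg (75.0%, 30.1 to 95.4). Signalling genes used in many tissues had a region in 4 of 9 cases (44.4%, 18.9 to 73.3), namely CkIalpha, a casein kinase (5.67-fold), shi, the fly dynamin (2.89-fold), N, the Notch receptor (2.78-fold), and flw, a protein phosphatase, which was not in the y1w1118 list. Of 8 chromatin regulators 3 had a region (37.5%, 13.7 to 69.4), with fs(1)h, a bromodomain protein, at 4.70-fold in 5 lists. The Polycomb genes ph-p and ph-d had none. Proteasome genes had a region in 2 of 6 cases (Prosalpha4 and Rpt3), RNA polymerase and Mediator genes in 1 of 5 (Polr2A), and translation factors in 1 of 7 (eIF2Bepsilon, 2.07-fold). Vesicle transport genes had one in 3 of 19 cases, with Rab35 at 5.48-fold, and tissue-specific or pigment genes in 2 of 21, which were g, a subunit of an adaptor complex of vesicle coats (5.46-fold), and Bx, a LIM-only protein.

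Genes of sex determination and dosage compensation were examined because they act on this chromosome. Of 9 on the euchromatic X, 2 had a region at a promoter. Sxl, the switch gene of sex determination (chrX:7097994-7098307), had 3.55-fold enrichment in y1w1118, was in 5 of the 6 defining lists and in 3 anti-HA lists. snf, a splicing factor that works with Sxl, had 2.07-fold in y1w1118 and was in no other list. The dosage compensation genes roX1, roX2 and mof and the X-encoded signal elements sc, sisA, upd1 and run had none. The share, 22.2% with a counting interval of 6.32 to 54.7, spans that of all coding genes.

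**Figure D4:**
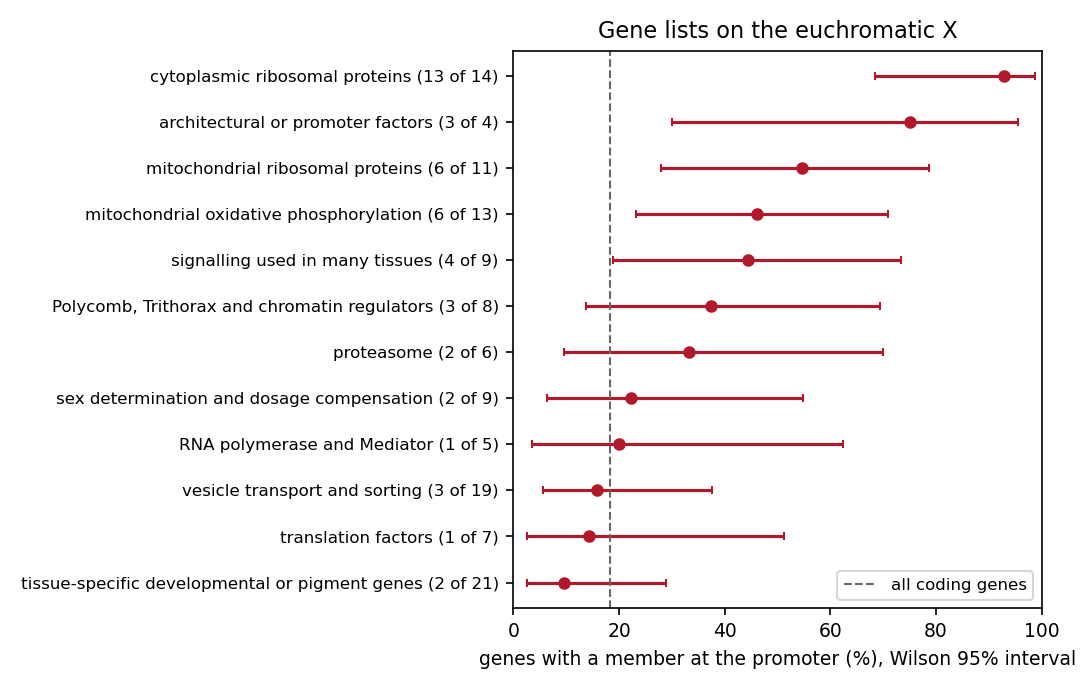
Share of genes of each list on the euchromatic X (%) with a region at a promoter; points give the share, bars the Wilson 95% interval for counting error, labels the counts, and the dashed line the 18.3% of all coding genes on the euchromatic X. Cytoplasmic ribosomal protein genes stand highest at 92.9%, and tissue-specific genes lowest at 9.52%.

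The 4 anti-HA lists did not choose the regions, but 3 of the 6 lists that did came from the same strains, in which anti-Mzfp1 could also precipitate the tagged protein, so recovery is not fully separate from the choice except in ΔZF-HA. In the wt-HA anti-HA list 47 of the 357 X regions were found (13.2%, 10.0 to 17.1), against 13.6% of autosomal regions and 17.7% of all merged regions, a difference of -0.476 points (-3.98 to 3.69). All 47 were also in the wt-HA list made with anti-Mzfp1. In ΔM2-HA 122 were found (34.2%, 29.4 to 39.2), against 42.1% of autosomal and 43.8% of all regions, a difference of -7.88 points (-13.1 to -2.37). In Δ42-HA 184 were found (51.5%, 46.4 to 56.7), against 34.8% of autosomal and 40.6% of all regions, a difference of 16.7 points (11.1 to 22.3). In ΔZF-HA 10 were found (2.80%, 1.53 to 5.08), against 11.1% of autosomal and 11.8% of all regions, a difference of -8.33 points (-10.3 to -5.69). For regions merged from the 3 untagged lists alone the differences were 1.62 points (-2.71 to 6.76) for wt-HA, -6.33 (-12.4 to 0.109) for ΔM2-HA, 19.7 (13.2 to 26.1) for Δ42-HA and -5.86 (-7.93 to -2.85) for ΔZF-HA. With 50% reciprocal overlap required, the ΔM2-HA difference was -0.253 points (-4.94 to 4.87) and that of Δ42-HA 14.0 (9.04 to 19.3). X regions were thus recovered more often than autosomal ones with Δ42-HA in each of these settings, while the interval for ΔM2-HA reached 0 in some.

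The same order was seen in the lists as wholes. The euchromatic X held 9.22% of all regions of the wt-HA anti-HA list, 6.52% of ΔM2-HA, 18.2% of Δ42-HA and 0.824% of ΔZF-HA. Among coding genes with no merged region at the promoter, ΔM2-HA met 6.535% on X and 9.95% on the autosomes, Δ42-HA 12.6% and 7.58%, ΔZF-HA 0.338% and 4.82%, and wt-HA 0.113% and 0.321%. The ΔM2-HA, Δ42-HA and ΔZF-HA lists were about the same length (6215, 6192 and 6187 regions) and wt-HA much shorter at 553. Each list's X share thus moved the same way at genes that no anti-Mzfp1 list marked as at the 357 regions, and the part of this in the recovery was not tested.

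The difference between X and autosomes was looked at by strength of the regions. In the 4 y1w1118 quartiles of fold enrichment from low to high, Δ42-HA recovered 47.8%, 40.2%, 54.4% and 77.8% of X regions and 25.7%, 29.3%, 33.3% and 47.1% of autosomal regions. X was higher in each quartile, and the interval of the difference reached 0 in the second (10.97 points, -0.326 to 22.8). ΔM2-HA recovered 34.8%, 18.3%, 35.1% and 74.1% on X and 29.5%, 38.5%, 46.8% and 58.3% on the autosomes, so that X lay below in the 2 middle quartiles only, by -20.2 points (-29.1 to -9.13) and -11.7 points (-24.0 to 2.33). The full protein recovered 50.0% of X regions in the top quartile (27 of 54) against 30.5% of autosomal ones, a difference of 19.5 points (5.61 to 33.2). In the lower quartiles, from low to high, it recovered 4.35%, 8.54% and 8.77% on X and 7.08%, 8.22% and 12.2% on the autosomes. When only regions shared by all 4 adult anti-Mzfp1 lists were compared, a choice made after seeing the data, the ΔM2-HA difference was 0.00148 points (-8.56 to 8.53) and that of Δ42-HA 23.3 points (14.7 to 31.3). With the anti-HA lists shortened to the length of the shortest, the ΔM2-HA difference was 2.05 points (-1.17 to 5.97), the ΔZF-HA difference -0.907 points (-2.02 to 1.02) and that of Δ42-HA 10.1 points (6.22 to 14.6). The direction for ΔM2-HA therefore depended on the weaker regions of its list, and that for Δ42-HA did not.

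By pattern, 204 X regions were in at least 1 anti-HA list (57.1%, autosomal 52.3%, all regions 55.6%) and 153 in none. Δ42-HA alone accounted for 77 (21.6%, autosomal 6.67%), ΔM2-HA alone for 18 (5.04%, autosomal 13.7%), wt-HA alone for 1 and ΔZF-HA alone for 0. Both ΔM2-HA and Δ42-HA recovered 103 (28.9%, autosomal 26.2%, all regions 30.3%). These were 84.4% of the ΔM2-HA set (autosomal 62.2%) and 56.0% of the Δ42-HA set (autosomal 75.1%). The strongest regions in no anti-HA list were the intergenic one near RpL37-1, the intron of trol, and the promoters of RpS5a (chrX:17148065-17148686), su(w[a]) (chrX:1032669-1033361; 6.46-fold), a splicing regulator, and mnb (chrX:17887010-17887687; 6.04-fold), a kinase of the DYRK family. mnb was in all 6 defining lists and ranked 46 of 784 in rat embryos. Of the 47 X regions recovered by the full protein, 35 were in the rat embryo list (74.5%), against 49.6% of the autosomal regions so recovered.

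Of the 10 strongest X regions, 6 were among the 10 found in ΔZF-HA: CG1677, Phf7, CG17841, vap, CG8939 and Ggt-1. Their place in that list varied, since vap ranked 3360 and Ggt-1 3089 of 6187 regions, at 2.45-fold and 2.48-fold. With 50% reciprocal overlap required, 1 of the 10 remained. The promoters of Dd (5.00-fold in y1w1118), a nuclear envelope phosphatase, and Zdhhc8 (6.23-fold), a palmitoyltransferase, were found at 2.30-fold each, at ranks 4568 and 4565 in ΔZF-HA, and that of CG4404, which was in the Δ42-HA anti-Mzfp1 list alone of the 6, at 2.41-fold. The second-ranked of the 10 lay near the tip of the chromosome, 68107 bp from the start of lncRNA:CR40469 (chrX:54312-54486), with 6.94-fold in ΔZF-HA at rank 24, 4.76-fold in ΔM2-HA, 4.57-fold in wt-HA and 4.48-fold in Δ42-HA with anti-HA. With anti-Mzfp1 it was listed in wt-HA at 2.81-fold and in Δ42-HA at 2.75-fold, and neither y1w1118 list of adults or embryos contained it. This region and that of CG4404 were the ones of the 10 seen in transgenic animals alone.

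Matches of the first matrix were common at X promoters. They occurred in 146 of 357 X regions (40.9%, 35.9 to 46.1) and in 34.6% of autosomal regions, a difference of 6.28 points (0.864 to 11.9), beside 34.2% of all merged regions. The matrix was trained on autosomal regions, and those kept out of training held it in 453 of 1452 cases (31.2%). That set lacks the strongest y1w1118 regions of 2L, 3L and 3R, whereas the X set keeps its own. In the y1w1118 tiers described below, from high to low, X shares were 28.0%, 52.0% and 51.1%. Autosomal regions outside training in the same fold ranges had 38.8%, 46.3% and 43.9%. Flanks 1000 bp from the summits held a match in 24 of 527 windows on X (4.55%) and in 68 of 2745 on the autosomes (2.48%), and all starts of coding genes on the euchromatic X in 630 of 3243 (19.4%). Of X regions at promoters 144 of 288 held one (50.0%, autosomal 40.8%) and of the others 2 of 69 (2.90%, autosomal 7.04%). In 63 of 146 regions the match lay within 20 bp of the summit, as at Dd, Ntf-2, RpS28b, Rab35 and su(w[a]) in the sequences above. The share went from 24.2% for X regions in 1 defining list to 55.7% for those in 5, and was 36.4% (4 of 11) for those in all 6. Autosomal shares followed the same pattern, at 20.2%, 50.4% and 23.9%. X regions in no anti-HA list held it in 68 of 153 cases (44.4%, autosomal 38.2%) and those of the wt-HA anti-HA list in 9 of 47 (19.1%, autosomal 23.3%). The X excess in Δ42-HA recovery was 18.2 points with a match and 16.3 points without, so it was of like size in both sets.

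The word TATCGATA, known as the DRE and bound by DREF and BEAF-32, is part of what this matrix finds, and 71 of the 146 matched X regions contained it. Searched on its own on both strands, TATCGATA was in 75 X regions (21.0%), 18.2% of autosomal regions, 1.33% of X flanks and 10.1% of all X coding starts. GGTCACAC, the core of the promoter element known as Motif 1, was in 44 X regions (12.3%), 8.41% of autosomal regions, 1.33% of X flanks and 6.88% of starts. It stood in 24 of 122 X regions in the ΔM2-HA anti-HA list (19.7%, autosomal 9.51%) and in 14.1% of those in Δ42-HA (autosomal 9.28%). Of X regions in Δ42-HA and not ΔM2-HA, 5 of 81 held it (6.17%, autosomal 6.51%). CAGCTG, an E-box, was in 17.4% of X regions, 14.8% of flanks and 17.1% of starts, and GAGAGAGA, a GA repeat like those in recognition elements of the dosage compensation complex, in 1.961% of X regions, 2.09% of flanks and 4.04% of starts. These last words were about as frequent in the regions as in the windows used for comparison, or less so. A match describes the letters within the window and not a site of binding.

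Matches of the second matrix were few and most frequent in the top tier of X regions, although most regions of that tier held none. Among the 25 X regions of highest y1w1118 enrichment, from 8.45-fold to 211-fold, 8 held a match (32.0%, 17.2 to 51.6), and in 7 of the 8 it lay within 20 bp of the summit. Among the next 75, from 3.85-fold to 8.40-fold, 1 did (1.33%), and among the 139 below 2 did (1.44%). Over all X regions the count was 14 of 357 (3.92%), against 5.15% of all merged regions, 2.85% of X flanks and 1.85% of all X coding starts, so the matrix was near the background outside the top tier. The first matrix went the other way, with 7 of 25 (28.0%), 39 of 75 (52.0%) and 71 of 139 (51.1%). Autosomal regions outside training that fell in the top fold range held the second matrix in 4 of 116 cases (3.45%). Training had taken the 50 strongest of 2L, 3L and 3R and none of 2R. Strength was therefore not matched between those 116 and the X regions. CG1677, the strongest X region, had no match of the second matrix. In the wt-HA anti-HA list 11 of 47 X regions held it (23.4%), and in the rabbit embryo list 5 of 12 (41.7%). The tiers themselves differed in recovery: with anti-HA, wt-HA recovered 19 of the top 25, ΔM2-HA and Δ42-HA 22 each and ΔZF-HA 6, and of the lowest tier of 139 they recovered 11, 34, 62 and 0. Autosomal recovery was likewise higher in the top y1w1118 quartile than in the lowest. It was 30.5% against 7.08% in wt-HA and 58.3% against 29.5% in ΔM2-HA. In Δ42-HA it was 47.1% against 25.7%, and in ΔZF-HA 19.3% against 5.60%.

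**Figure D5:**
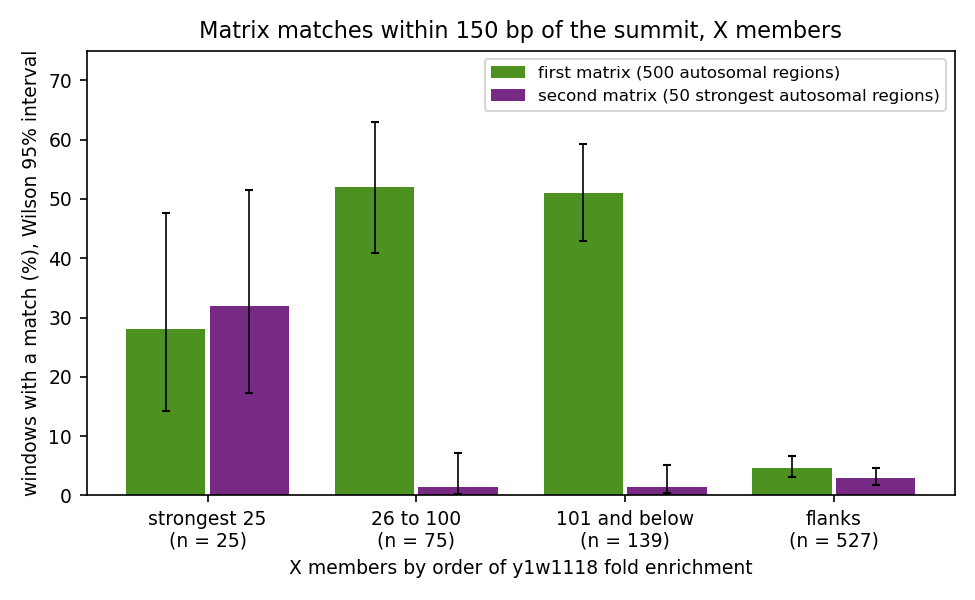
Share of regions or windows (%) with a match of the first and of the second matrix, for X regions in tiers of y1w1118 fold enrichment and for flanks of X regions; error bars are Wilson 95% intervals for counting error. The second matrix is highest in the top 25 (32.0%) and near 1% in the tiers below, while the first matrix is lower in the top 25 (28.0%) than in the next tier (52.0%).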

How the data were processed

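The 18 ChIP libraries and 5 control libraries of the series gave 10 region lists. The authors trimmed reads (cutadapt, sickle), aligned them to dm6 (bowtie2 for paired, bowtie for single-end reads), removed duplicates and blacklisted regions, and called regions with MACS2 against preimmune controls, at p 1e-05 in embryos. Adult regions, called at p 0.01, passed the irreproducible discovery rate (IDR) procedure on both libraries, at 0.05 between replicates or 0.01 between pseudoreplicates. The study rated reproducibility as moderate for anti-HA in wt-HA and Δ42-HA and for anti-Mzfp1 in wt-HA and ΔM2-HA. It rated the other adult groups as good. The deposited lines give positions in bp, a fold enrichment (a ratio over the control), the −log10 of the p-value and q-value, and a score. Embryo lists had the preimmune control of the same antibody species; which control each adult list was called against is not given in the sources used here. The deposited adult lines hold the fold value and width of the first IDR input, so values describe 1 input and no average.

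Lists were merged at 1 bp of overlap with Python 3.11.15, numpy 2.4.6 and pandas 2.3.3; figures used matplotlib 3.10.9. The heterochromatin border was that of the study. Starts came from Ensembl release 115 (BDGP6), and promoters were windows of 200 bp on either side. Regions were ranked by fold enrichment within a list. Shares have Wilson, and differences Newcombe, 95% intervals (scipy 1.17.1). No test across samples was possible with 1 list per group. The background value used in calling was solved from the deposited fold and p-value, taking the p-value as a Poisson tail. The merging and matrix steps were tested on simulated data. The text names the 10 strongest regions, those in all 10 lists or in ΔZF-HA, the strongest in embryos only, in no anti-HA list, in 1 adult list or away from promoters, the widest, those beside the border, and those of the gene lists, each by the gene with the nearest start. RpL37-1 and Ran are among them. Genes shown for their sequences only (Ntf-2) were chosen after their values were seen. The members, the gene lists and these rules were chosen with earlier results of these data known. Alternatives were 50% reciprocal overlap, stricter limits, equal list lengths, other promoter windows and matrix thresholds, and ranking by −log10 p.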

Additional observations from a re-analysis of the deposited data

How the results depend on the processing

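No paired analysis was possible because each adult list pools both libraries of its group and each embryo list rests on 1 library, so leaving out a library was not possible either. Of 92 alternatives to 37 results, 67 left the value within its interval, or a count within 1.5 times. Under 50% reciprocal overlap the rat embryo list held 93 members, the rabbit list 1, and the Δ42-HA and ΔZF-HA anti-HA lists 115 and 1, and the X minus autosomal recovery was -0.253 points for ΔM2-HA and -4.03 for ΔZF-HA. With anti-HA lists of equal length (553 regions) it was 2.05 points for ΔM2-HA, which turned its direction, 10.1 for Δ42-HA and -0.907 for ΔZF-HA. An IDR limit of 0.01 gave -5.42 points for ΔZF-HA. With heterochromatin and chromosome 4 added to the autosomes it was -5.22 points for wt-HA and -10.5 for ΔZF-HA. Among regions in all 4 adult anti-Mzfp1 lists, chosen after seeing the data, it was 5.93 points for wt-HA, 0.00148 for ΔM2-HA and 23.3 for Δ42-HA. The ΔM2-HA value there, with an interval of -8.56 to 8.53, showed no direction. The promoter share was 75.1% by summit and 86.8% for regions in more than 1 list (autosomal 86.5%). The matrix share was 29.7% at a threshold of 1 in 100 flanks and 3.92% with the second matrix, chosen after seeing the data. For regions in all 4 adult lists the median width was 421 bp in y1w1118 and 461.5 bp in Δ42-HA. Ranked by −log10 p, the median X region stood at 61.5% in y1w1118, 58.9% in Δ42-HA, 57.9% in wt-HA and 56.7% in ΔM2-HA with anti-Mzfp1. Direction was kept for Δ42-HA and ΔZF-HA recovery in each of these settings. The causes were not tested. Depth could not be read from the lists, and absence from a list is not absence of the protein.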

Other observations

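The anti-HA lists also held euchromatic X regions outside the 357. Of 51 in wt-HA, 4 lay outside: 3 within or beside y and lncRNA:yar (2.85-fold to 3.10-fold) and 1 at the promoter of Axs (3.42-fold). The gene y, needed for cuticle pigment, marked the transgene in these flies by the study's methods, so reads of the transgene and of the locus on X cannot be told apart. Of 405 in ΔM2-HA, 284 lay outside, the strongest at the promoter of Alr (9.01-fold) and in an intron of kdn, citrate synthase (6.28-fold), and 44.7% of the 284 were at promoters against 21.3% of the like autosomal regions.

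Of 1125 in Δ42-HA, 936 lay outside. The strongest were a region listed nearest to brk, a repressor of Dpp targets, 6807 bp from its start (19.4-fold, chrX:7299759-7301344), a region near CG6106 (11.9-fold) and the promoter of pcx (10.7-fold). At promoters were 28.1% of the 936 and 21.5% of the like autosomal regions. Of 51 in ΔZF-HA, 41 lay outside, and the strongest (6.14-fold, chrX:52564-52841) lay beside the member near lncRNA:CR40469.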
